A study of Mus musculus with 8 samples.

Results

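The genes described here are 10 that coat lipid droplets, make triglyceride or control its breakdown: Plin2, Plin3, Plin4, Plin5, Dgat1, Dgat2, Pnpla2, G0s2, Hilpda and Angptl4. They were chosen by name and function and selected on known differences in expression between the groups of these data, and all 10 were found among the 15948 genes of the table. Their values are therefore a description, with no test read from them.

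Messenger RNA was sequenced from 8 mouse kidneys, 3 labelled Arhgef11Sglt2 DOCA and 5 labelled Sglt2Cre DOCA. The study's title speaks of a knockout of Arhgef11, a guanine nucleotide exchange factor, in the proximal tubule. SGLT2 takes up glucose in the early proximal tubule, its promoter is commonly used to express Cre recombinase in those cells, and the controls have Sglt2Cre in their name. DOCA (deoxycorticosterone acetate, a mineralocorticoid used to raise blood pressure) is in the label of both groups, so no untreated kidney enters the comparison. The labels name 2 studies as the source of the kidneys without saying which library came from which. Strain, sex, age and dose are not given in the labels, nor whether each library came from a separate animal, so the spread between libraries may be partly technical. Arhgef11 itself had 2935, 3919 and 3905 normalized counts in Arhgef11Sglt2 replicates 1, 2 and 3, against 3479 to 3928 in the Sglt2Cre libraries. Only replicate 1 lay below the controls, and replicates 2 and 3 were inside their range, so the level of the whole gene in whole kidney did not separate the labelled groups.

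Lipid droplets are stores of triglyceride and sterol ester wrapped in a phospholipid layer and a coat of perilipins. DGAT1 and DGAT2 catalyse the last step of triglyceride synthesis, and ATGL, encoded by Pnpla2, takes off the first fatty acid. ATGL is activated by ABHD5 and inhibited by G0S2 and HILPDA. Proximal tubule cells burn fatty acids for most of their energy and are a known site of droplet build-up when the kidney is injured.

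In kidneys labelled Arhgef11Sglt2, 9 of the 10 genes had a higher mean. The coat gene Plin2 was 4.51-fold, the lipoprotein lipase inhibitor Angptl4 3.36-fold, the ATGL inhibitor Hilpda 2.87-fold and the coat gene Plin5 2.48-fold higher, while both Dgat genes and Plin3 lay within 1.12-fold of the controls. In limma across all genes 2 of the 10 passed an adjusted p of 0.05, Plin2 and Angptl4, both higher, where 2.22% of all genes passed, 0.627% as higher and 1.59% as lower. In 3 of the 10 (Plin2, Angptl4 and Hilpda) every Arhgef11Sglt2 library lay above every Sglt2Cre library, as in 6.2% of all genes; in 0 of the 10, against 8.14% of all genes, every one lay below. Since the list was made with this contrast known, nothing is read from these shares. The median log2 difference of the 10 genes was 0.40, against -0.0070 over all genes. In bulk tissue, fewer cells of a type and less RNA per cell cannot be told apart. Values in single libraries are normalized counts, taken back from the deposited log2 scale. Folds are ratios of group means of these counts, and log2 differences are on the deposited scale, which shrinks the differences of low genes such as Hilpda, Plin4 and Plin5.

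**Figure D1:**
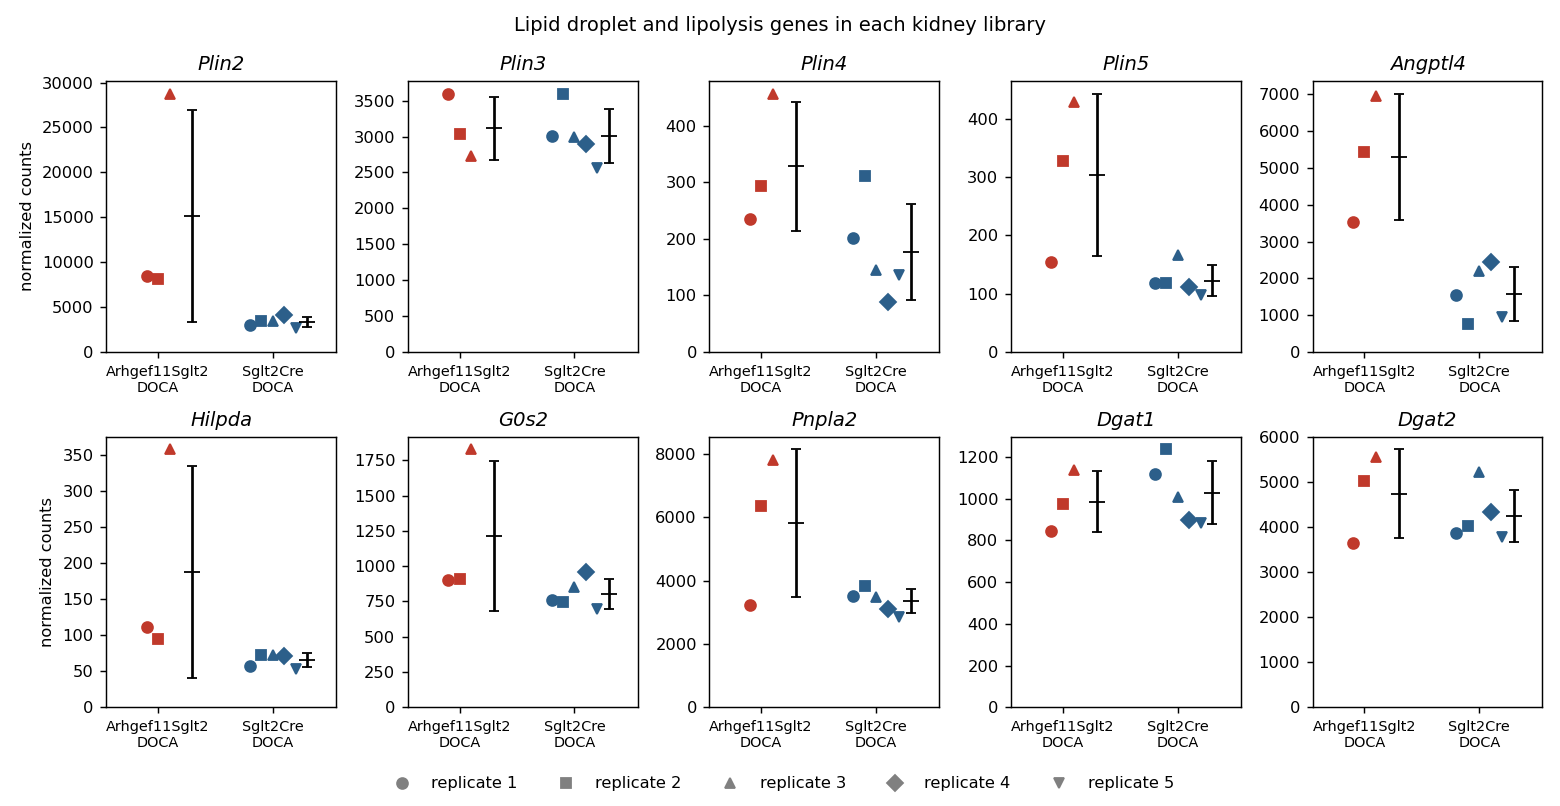
Normalized counts (y axes, linear, from 0) of the 10 genes in the 3 Arhgef11Sglt2 DOCA and 5 Sglt2Cre DOCA libraries; each symbol is 1 library and its shape the replicate number, and the black bar is the mean ± SD. Replicate 3 of the Arhgef11Sglt2 group held the highest value of 8 of the 10 genes, among them Plin2 with 28731.

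Promoter sequence is shown for Plin2, Hilpda, Plin5 and Pnpla2, the genes whose values are followed most closely below and that have an entry. The stretches are the 250 bases before a transcription start in RefSeq, build GRCm38.p6, written 5′ to 3′ on the gene's strand. The table held 7 of the 10 genes with 9 starts in all. Angptl4, Dgat1 and Dgat2 had no entry. Capitals mark, on either strand, the nuclear receptor core AGGTCA (bound in pairs by PPAR with RXR, receptors of fatty acids) and the hypoxia response core ACGTG (bound by HIF).
Plin2, chr4:86670060-86670309, minus strand: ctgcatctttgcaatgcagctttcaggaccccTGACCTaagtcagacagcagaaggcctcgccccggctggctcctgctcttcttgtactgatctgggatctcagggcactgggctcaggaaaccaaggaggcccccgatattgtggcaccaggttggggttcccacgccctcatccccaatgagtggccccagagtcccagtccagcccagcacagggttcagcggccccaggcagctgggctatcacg
Hilpda, chr6:29272376-29272625, plus strand: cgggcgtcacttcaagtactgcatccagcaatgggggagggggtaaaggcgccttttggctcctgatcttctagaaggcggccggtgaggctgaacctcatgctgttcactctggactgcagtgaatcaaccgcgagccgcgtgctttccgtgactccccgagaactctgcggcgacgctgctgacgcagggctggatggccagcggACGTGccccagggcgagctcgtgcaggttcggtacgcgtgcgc
Plin5, chr17:56117549-56117798, minus strand: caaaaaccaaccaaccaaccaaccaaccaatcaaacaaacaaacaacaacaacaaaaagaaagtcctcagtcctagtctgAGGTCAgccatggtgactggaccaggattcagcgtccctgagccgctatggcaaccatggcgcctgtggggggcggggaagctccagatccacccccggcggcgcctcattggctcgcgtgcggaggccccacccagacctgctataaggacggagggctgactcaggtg
Pnpla2, chr7:141454938-141455187, plus strand: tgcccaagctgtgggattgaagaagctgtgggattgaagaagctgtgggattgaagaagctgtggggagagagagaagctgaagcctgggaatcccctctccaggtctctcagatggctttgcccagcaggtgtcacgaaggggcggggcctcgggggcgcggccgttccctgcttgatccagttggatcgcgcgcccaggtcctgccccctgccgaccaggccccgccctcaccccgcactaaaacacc
Plin2 held the core AGGTCA 218 bases before its start, reading on the opposite strand. Plin5 held it 170 bases before the upstream of its 2 starts, and the window of its other start did not hold it. Hilpda held ACGTG 43 bases before the downstream of its 2 starts. Of the 9 windows 2 held AGGTCA and 1 held ACGTG, while 14.0% and 16.6% of 32851 mouse windows of the same length did. The pair AGGTCANAGGTCA, with 1 base between the copies, was in 0 of the 9 windows and in 0.0335% of all. A match is only a run of letters, and the windows show nothing of elements farther away.

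Among the coat genes, Plin2 (ENSMUSG00000028494), the perilipin of most non-fat tissues, had 8418, 8155 and 28731 normalized counts in Arhgef11Sglt2 replicates 1, 2 and 3. The Sglt2Cre libraries held 3031, 3449, 3474, 4148 and 2658. All 3 Arhgef11Sglt2 libraries were above all controls; replicates 1 and 2 were close to each other and replicate 3 stood far above them. The means were 15101 ± 11805 in Arhgef11Sglt2 and 3352 ± 557 in Sglt2Cre libraries (SD, n = 3 and 5), with a log2 difference of 1.77 (SE 0.35). By that difference Plin2 was rank 8 of 15948 genes from the top. Without replicate 3 of the Arhgef11Sglt2 group it was 2.47-fold higher, and its lowest Arhgef11Sglt2 library was 1.97-fold above the highest control.

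Plin5 (ENSMUSG00000011305), a perilipin of fat-burning tissues that tethers droplets to mitochondria, had 154.2, 327.4 and 429.5 normalized counts in Arhgef11Sglt2 replicates 1, 2 and 3. It had 117.9, 118.9, 166.5, 111.8 and 97.67 in the Sglt2Cre libraries. Replicates 2 and 3 were above every control, and replicate 1 lay below control replicate 3, so the groups overlapped. The log2 difference was 0.48 (SE 0.13), and the call of limma was missed in the fit of all 8 libraries but made without Arhgef11Sglt2 replicate 1 (3.09-fold). Without replicate 2 or 3 of that group Plin5 was 2.38-fold and 1.96-fold higher and was not called (limma adjusted p = 0.158 and 0.270).

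Plin4 (ENSMUSG00000002831), a perilipin best known from fat and muscle, had 234.8, 292.9 and 456.1 normalized counts in Arhgef11Sglt2 replicates 1, 2 and 3. The Sglt2Cre libraries had 201.5, 310.6, 145.1, 87.34 and 136.6. Only Arhgef11Sglt2 replicate 3 was above every control, and control replicate 2 was above the other two. The mean was 1.86-fold higher and the log2 difference 0.39 (SE 0.15). Plin4 and Plin5 are next to each other on chromosome 17 in RefSeq's gene order, with 0 genes between them, yet their highest control libraries differed (replicate 2 for Plin4, replicate 3 for Plin5).

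Plin3 (ENSMUSG00000024197), a broadly expressed perilipin that moves from the cytosol to young droplets, had 3593, 3032 and 2723 normalized counts in the Arhgef11Sglt2 libraries. The controls ran from 2559 to 3589, so the groups overlapped, with replicate 1 just above the highest control. The log2 difference was 0.043 with a 95% interval of -0.19 to 0.28, which includes no difference and differences of up to that size in either direction. The ratio of Plin2 to Plin3 counts within a library was 2.34, 2.69 and 10.6 in Arhgef11Sglt2 replicates 1, 2 and 3, against 0.961 to 1.43 in the Sglt2Cre libraries.

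Both Dgat genes had groups that overlapped. Dgat1 (ENSMUSG00000022555) had 844.5, 975.5 and 1140 normalized counts in Arhgef11Sglt2 replicates 1, 2 and 3, against 882.9 to 1236 in the controls, a log2 difference of -0.04 (95% interval -0.26 to 0.18). It was the single gene of the 10 with a lower mean. Dgat2 (ENSMUSG00000030747) had 3650, 5017 and 5548, against 3788 to 5216, a log2 difference of 0.13 (95% interval -0.16 to 0.43). In both genes Arhgef11Sglt2 replicate 1 was below every control, and replicate 3 was the highest of its group.

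Pnpla2 (ENSMUSG00000025509), the triglyceride lipase itself, had 3242, 6368 and 7807 normalized counts in Arhgef11Sglt2 replicates 1, 2 and 3. The Sglt2Cre libraries had 3511, 3847, 3489, 3106 and 2868. Replicate 1 sat inside the control range, while replicates 2 and 3 were well above it. The mean was 1.73-fold higher with a log2 difference of 0.63 (SE 0.21), which missed the threshold of limma. Without replicate 1, the library nearest the controls, Pnpla2 was 2.11-fold higher and passed it. Without replicate 2 or 3 it was 1.64-fold and 1.43-fold higher and did not pass (limma adjusted p = 0.281 and 0.467).

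Of the ATGL inhibitors, Hilpda (ENSMUSG00000043421), a small droplet protein induced by hypoxia and fatty acids, had 111.3, 94.23 and 357.1 normalized counts in Arhgef11Sglt2 replicates 1, 2 and 3. The Sglt2Cre libraries stayed between 53.63 and 72.84. The groups did not overlap, and replicate 3 was far above the rest. The log2 difference was 0.40 (SE 0.14), and with replicate 3 left out the mean was 1.57-fold higher. G0s2 (ENSMUSG00000009633), the other ATGL inhibitor, had 903.4, 906.4 and 1826 normalized counts in Arhgef11Sglt2 replicates 1, 2 and 3, and 758.1, 743.1, 850.8, 961.7 and 697.7 in the controls. Control replicate 4 was above Arhgef11Sglt2 replicates 1 and 2, so only replicate 3 stood apart; the mean was 1.51-fold higher, and 1.13-fold without that library.

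Enzyme and inhibitor were also compared within each library. The ratio of G0s2 to Pnpla2 counts was 0.279, 0.142 and 0.234 in Arhgef11Sglt2 replicates 1, 2 and 3, against 0.193 to 0.310 in the controls, with replicate 2 below all of them. That of Hilpda to Pnpla2 counts was 0.0343, 0.0148 and 0.0457 in Arhgef11Sglt2 replicates 1, 2 and 3. The controls ran from 0.0162 to 0.0230, so replicates 1 and 3 were above all of them and replicate 2 below. The activator Abhd5 had 2078 ± 69.3 normalized counts in Arhgef11Sglt2 and 1988 ± 88.1 in Sglt2Cre libraries (SD, n = 3 and 5; limma adjusted p = 0.663). Its ratio to Pnpla2 was 0.617, 0.330 and 0.273 in Arhgef11Sglt2 replicates 1, 2 and 3, against 0.522 to 0.723 in the controls, so replicates 2 and 3 had less activator transcript per lipase transcript than any control.

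Angptl4 (ENSMUSG00000002289), a secreted protein that inactivates lipoprotein lipase, had 3538, 5430 and 6950 normalized counts in Arhgef11Sglt2 replicates 1, 2 and 3. The Sglt2Cre libraries had 1550, 759.6, 2189, 2435 and 954.5. The groups did not overlap, but the controls spread 3.21-fold between their lowest and highest library, more than for any other of the 10 genes save Plin4 (3.56-fold). The means were 5306 ± 1710 in Arhgef11Sglt2 and 1578 ± 736 in Sglt2Cre libraries (SD, n = 3 and 5), with a log2 difference of 1.52 (SE 0.30), rank 13 of all genes. Lpl, its target enzyme, had 12942 ± 3180 in Arhgef11Sglt2 and 19273 ± 2030 in Sglt2Cre libraries (log2 difference -0.58, limma adjusted p = 0.079), with no overlap. The ratio of Angptl4 to Lpl counts was 0.376, 0.391 and 0.447 in Arhgef11Sglt2 replicates 1, 2 and 3, against 0.0381 to 0.135 in the controls.

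The calls of the 2 genes rested on the full set of libraries. Plin2 missed the threshold when any 1 of the 5 control libraries was left out, with log2 differences of 1.70 to 1.84, and passed it when any 1 of the Arhgef11Sglt2 libraries was. Angptl4 missed it without Arhgef11Sglt2 replicate 2 or 3 or control replicate 1, 3, 4 or 5, and passed it without Arhgef11Sglt2 replicate 1 or control replicate 2. The count of genes called over the whole table, 354 with all libraries (100 higher and 254 lower, or 149 and 178 when libraries were scaled to equal totals), moved between 24 and 1334 with 1 library left out.

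Per length, Plin2 was the most abundant of the 10 in Arhgef11Sglt2 libraries and Dgat2 in the controls. In Arhgef11Sglt2 libraries the mean normalized count per kilobase of exon was 4300 for Plin2 (2322 to 8181), 1922 for Pnpla2 (1073 to 2585), 1537 for Dgat2, 1498 for Angptl4, 1391 for G0s2, 823.1 for Plin3, 322.9 for Dgat1, 170.0 for Hilpda, 145.5 for Plin5 and 56.8 for Plin4. In Sglt2Cre libraries it was 1375 for Dgat2, 1114 for Pnpla2, 954.4 for Plin2, 921.1 for G0s2, 794.2 for Plin3, 445.5 for Angptl4, 336.5 for Dgat1, 59.3 for Hilpda, 58.7 for Plin5 and 30.5 for Plin4. In the controls the range of each gene over the 5 libraries overlapped that of the next in this order, except for Dgat1 and Hilpda. Overlap of ranges does not give the order of the genes within a library. Lengths are of all annotated exons merged, from an annotation of build GRCm38, so levels between genes are approximate.

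The 10 genes did not move as a block across the Arhgef11Sglt2 libraries. Replicate 1 had 4 genes above all controls (Plin2, Hilpda, Angptl4 and Plin3) and 2 below all of them, replicate 2 had 5 above, and replicate 3 had 8 above. Over all genes, 22.5%, 21.6% and 28.6% lay above all controls in replicates 1, 2 and 3. The median deviation of the 10 genes from the control mean was 0.15, 0.28 and 0.81 on the log2 scale in replicates 1, 2 and 3. In Plin2, Hilpda and G0s2, replicates 1 and 2 were alike and replicate 3 stood above them. In Plin5, Pnpla2 and Dgat2, replicate 1 lay with the controls or below, and replicates 2 and 3 were both higher.

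**Figure D2:**
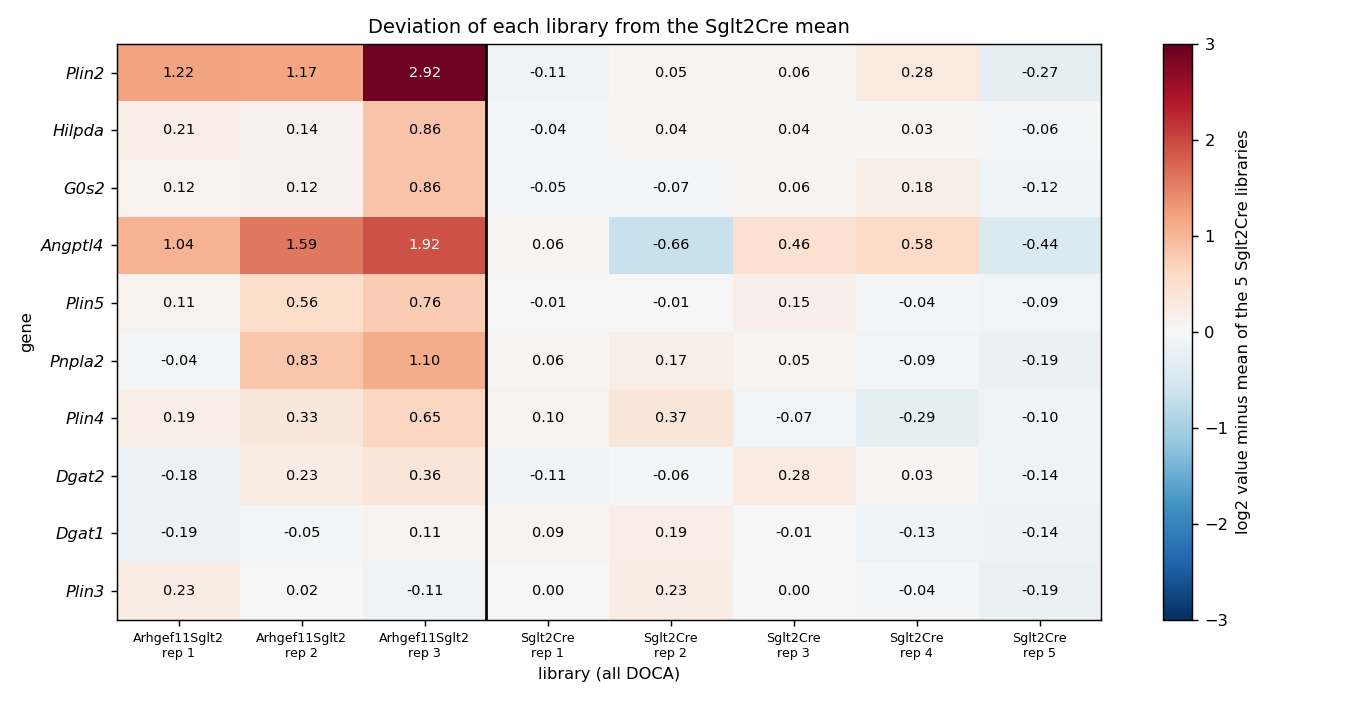
Deviation of each library (columns, Arhgef11Sglt2 DOCA left of the line, Sglt2Cre DOCA right) from the mean of the 5 Sglt2Cre libraries, on the deposited log2 scale, for the 10 genes (rows). Plin2 deviated by 1.22, 1.17 and 2.92 in Arhgef11Sglt2 replicates 1, 2 and 3, and Pnpla2 by -0.041 and 0.83 in replicates 1 and 2.

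As a description over the 8 libraries, which share the group difference, the values of Plin2 and Hilpda had a Pearson r of 0.96 (0.95 without Arhgef11Sglt2 replicate 3), and those of Plin5 and Pnpla2 of 0.96 (0.91 without it). For Hilpda and G0s2 the r of 0.97 was 0.68 without that library. Outside the list, the genes most like Plin2 over the 8 libraries, of those with a mean of at least 100 normalized counts, were Anxa7, Pak1ip1, Ltbr, Parn and Prrg4, with r of 0.995, 0.992, 0.990, 0.986 and 0.985. The genes most like Plin5 were Slc25a34, Socs2, Srd5a3, Tmem252 and Pex11a, with r of 0.992, 0.989, 0.984, 0.982 and 0.980. Those most like Angptl4 were Zfp119a, Oplah, Akap1, Slco2a1 and Map3k6, with r of 0.982, 0.979, 0.978, 0.974 and 0.973. These are the highest of 12698 genes compared over 8 points and carry no test.

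Library names carry numbers that fall into a lower and a higher range, whose meaning is not given. In the lower range, with 2 Arhgef11Sglt2 and 3 Sglt2Cre libraries, Plin2 was 2.50-fold, Angptl4 2.99-fold, Hilpda 1.53-fold, Plin5 1.79-fold and Pnpla2 1.33-fold higher. In the higher range, with Arhgef11Sglt2 replicate 3 and control replicates 4 and 5, the same genes were 8.44-fold, 4.10-fold, 5.71-fold, 4.10-fold and 2.61-fold higher. Plin4 was 1.20-fold and G0s2 1.15-fold higher in the lower range, and 4.07-fold and 2.20-fold in the higher. Dgat1 was 0.812-fold the control level in the lower range and 1.28-fold in the higher. Dgat2 was 0.993-fold and 1.37-fold, and Plin3 1.04-fold and 0.999-fold, in the lower and the higher range. Dgat1 thus lay below the controls in the lower range and above them in the higher, where there was 1 Arhgef11Sglt2 library. Dgat2 in the lower range and Plin3 in the higher were level with the controls.

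Fat cells also express several of these genes, so adipocyte markers were read in each library. Adipoq, the adiponectin gene, had 57.69 and 175.5 normalized counts in Arhgef11Sglt2 replicates 1 and 2 and was listed at 0 in replicate 3. It had 124.7 and 382.3 in control replicates 1 and 2 and was listed at 0 in control replicates 3, 4 and 5. Control replicate 2 also held 2352 of Ucp1, the uncoupling protein of brown fat, and 332.8 of Plin1, the perilipin of fat cells. The other libraries had at most 138.0 and 58.08 of these. Of the 13 markers 5 also stand in the droplet or lipase lists. In limma 0 of the 13 passed, and 1 was at an unadjusted p under 0.05, where 21.1% of all genes were. The summed level of the 13 was 28239 to 106025 in Arhgef11Sglt2 and 42135 to 88876 in Sglt2Cre libraries, most of it Pck1, which proximal tubule makes for glucose synthesis. Without Pck1, Fabp4, Aqp7 and Lipe, which kidney cells or vessels also express, the remaining 9 summed to 103.5 to 1295 in Arhgef11Sglt2 and 7.47 to 5147 in Sglt2Cre libraries.

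The library with the most Adipoq among the controls, replicate 2, was the one with the most Plin4, Pnpla2, Dgat1 and Plin3 of its group; the part of fat tissue in those values was not tested. Adipoq was at 0 in 4 libraries, which allows a comparison within them. In them the 9 markers still summed to 103.5 in Arhgef11Sglt2 replicate 3, against 7.47 to 13.4 in the 3 controls. Most of the 103.5 was Cidec (66.87), Plin1 (24.06) and Cidea (5.92), which also stand in the list of droplet coat and assembly. The 3 controls had at most 7.05, 2.39 and 3.14 of these. There, Arhgef11Sglt2 replicate 3 stood against control replicates 3 to 5 with 28731 against a mean of 3427 normalized counts for Plin2 (8.39-fold), 6950 against 1859 for Angptl4 (3.74-fold) and 357.1 against 65.9 for Hilpda (5.42-fold). Plin4 was 3.71-fold, Plin5 3.43-fold, Pnpla2 2.48-fold and G0s2 2.18-fold higher. With 1 library on one side, these folds have no replicate check. When control replicates 1 and 2 were left out of the whole fit, a choice made after the data were seen, 0 of the 10 genes and 176 of all genes passed, and the log2 differences of Plin2 and Angptl4 were 1.75 and 1.32.

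**Figure D3:**
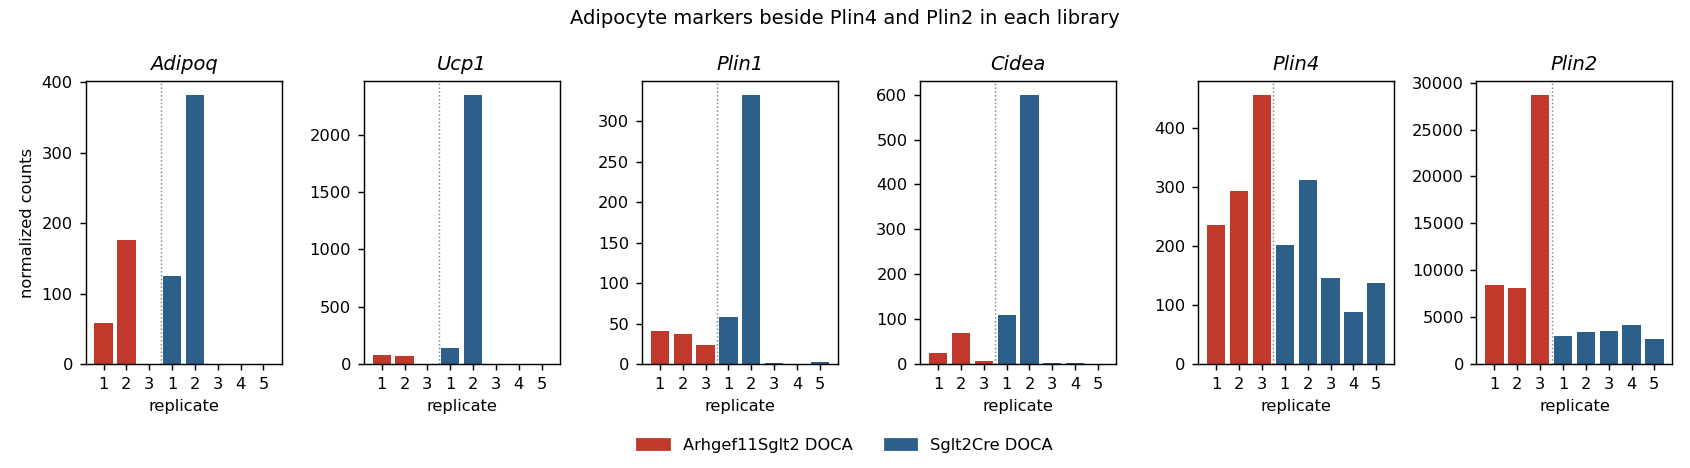
Normalized counts (y axes, linear, each panel its own scale) of the adipocyte genes Adipoq, Ucp1, Plin1 and Cidea beside Plin4 and Plin2, with 1 bar per library, Arhgef11Sglt2 DOCA replicates 1 to 3 left of the dotted line and Sglt2Cre DOCA replicates 1 to 5 right of it. Control replicate 2 had the tallest bar of all 4 adipocyte genes, and Arhgef11Sglt2 replicate 3 the tallest of Plin4 and Plin2.

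Markers of other cells moved with the libraries too. Early proximal tubule markers (2 of 10 lower, 0 higher) summed to 298104 to 457334 in Arhgef11Sglt2 and 475086 to 527314 in Sglt2Cre libraries, and late proximal tubule markers (4 of 9 lower, 0 higher) to 52191 to 90678 in Arhgef11Sglt2 and 96812 to 185991 in Sglt2Cre libraries. Injured tubule markers (2 of 12 higher, 0 lower) summed to 414788 to 941954 in Arhgef11Sglt2 and 173779 to 602229 in Sglt2Cre libraries, with the highest sum in Arhgef11Sglt2 replicate 1. Thick ascending limb markers (2 of 8 lower, 0 higher) summed to 254845 to 324629 in Arhgef11Sglt2 and 334876 to 385433 in Sglt2Cre libraries. In limma 0 markers passed of macrophages (12), endothelium (8), adrenal cortex (3 measured of 9) or skeletal muscle (3 measured of 7), with 2, 0, 1 and 1 at an unadjusted p under 0.05. Of all genes, 21.1% were under it. Macrophages can also store lipid. Their markers summed to 24239, 14418 and 8457 in Arhgef11Sglt2 replicates 1, 2 and 3, against 12663 to 16603 in the controls. The lowest sum was in replicate 3, which had the most Plin2. The highest was in replicate 1, whose Plin2 was also above all controls. The part of the other cell types in the values of the 10 genes was not tested.

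Around the 10 genes, the rest of the droplet machinery showed no call at the threshold of 0.05 with group as the only term and all 8 libraries weighted equally. Without Arhgef11Sglt2 replicate 1, 2 genes of droplet coat and assembly, 6 of triglyceride and sterol ester synthesis and 3 lipase genes passed, and with array weights 1, 2 and 2. Of all 15948 genes, 1334 passed without that library and 874 with array weights, against 354 with all 8 libraries weighted equally. Of 17 measured genes of droplet coat and assembly, 0 passed in limma and the median log2 difference was 0.02. Those with the smallest p were Cideb, a protein of droplet fusion and lipoprotein loading (-0.46, SE 0.11, limma adjusted p = 0.0617), the lipid transfer protein gene Vps13a (-0.22, adjusted p = 0.183) and Fitm2, an endoplasmic reticulum protein of droplet budding (0.34, adjusted p = 0.194). Of 16 further genes of triglyceride and sterol ester synthesis, 0 passed, with a median of 0.03. Mogat2, a monoacylglycerol acyltransferase, had 233.5 ± 125.9 normalized counts in Arhgef11Sglt2 and 552.0 ± 166.3 in Sglt2Cre libraries (limma adjusted p = 0.0701). Lpin3, a phosphatidate phosphatase, and Gpat3, a glycerol-phosphate acyltransferase, had log2 differences of 0.35 and 0.49 (limma adjusted p = 0.117 and 0.129). Of 15 other lipases and their partners, 0 passed, with a median of 0.03. Besides Lpl they were led by Lipe, the hormone-sensitive lipase (0.61, limma adjusted p = 0.1), and Ddhd2, a triglyceride lipase of the brain (0.38, limma adjusted p = 0.102). At an unadjusted p under 0.05 the counts of these 3 lists were 3, 5 and 4, where 21.1% of all genes were under it.

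Of 15 genes of uptake and activation 1 was higher, Fabp1, a fatty acid binding protein, with 62.18, 180.2 and 249.4 normalized counts in Arhgef11Sglt2 replicates 1, 2 and 3, against 7.04 to 42.4 in the controls (limma adjusted p = 0.036). That call was lost without Arhgef11Sglt2 replicate 3 or control replicate 2, 3, 4 or 5. In this list 6 of 15 passed without Arhgef11Sglt2 replicate 1 and 6 with array weights, where 1334 and 874 of all 15948 genes did. At an unadjusted p under 0.05 were 9 of the 15, against 21.1% of all genes. Next by p were Acsl3, an acyl-CoA synthetase of growing droplets (-0.33, limma adjusted p = 0.0762), and Fabp5 (-0.35, limma adjusted p = 0.0788). Of 18 fatty acid synthesis genes 3 were lower and 0 higher, with a median log2 difference of -0.20 and 15 of 18 negative. Acaca, the rate-limiting enzyme, had 1310 ± 139 normalized counts in Arhgef11Sglt2 and 2141 ± 115 in Sglt2Cre libraries (log2 difference -0.55, SE 0.07, limma adjusted p = 0.0143). The desaturase genes Fads2 and Scd2 were lower with log2 differences of -0.53 and -0.48 (limma adjusted p = 0.0189 and 0.0454). The count of 3 was 5 without Arhgef11Sglt2 replicate 1, and 1 without Arhgef11Sglt2 replicate 3 or control replicate 4. Over all genes, 1334, 45 and 24 passed in these fits.

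Plin2, Angptl4, Plin5, Hilpda, G0s2 and Pnpla2 are known targets of PPAR receptors, so other PPAR alpha targets and regulators were counted. Of 26 measured, 6 were higher and 0 lower, with a median log2 difference of 0.59 and 23 of 26 positive. Among those higher were Vnn1, a pantetheinase (1.08), the acyl-CoA thioesterase genes Acot1 (1.29) and Acot2 (1.07), Slc25a20, the mitochondrial carnitine carrier (0.61), and the fatty acid hydroxylase gene Cyp4a14 (2.35), with limma adjusted p of 0.0311, 0.0412, 0.0389, 0.0425 and 0.0466. Acot1 and Cyp4a14 have close relatives in the genome, so the split of reads among them is uncertain. The median deviation of the list from the control mean was 0.13, 0.82 and 0.73 in Arhgef11Sglt2 replicates 1, 2 and 3. Replicate 1 was thus nearest to the controls, as it was in Pnpla2, Plin5 and Angptl4. In Plin2, Hilpda and G0s2, replicates 1 and 2 were alike instead. The count of 6 rested on single libraries: it was 19 without Arhgef11Sglt2 replicate 1, 1 and 0 without replicates 2 and 3 of that group, and 3, 2, 1, 0 and 1 without control replicates 1, 2, 3, 4 and 5. Over all genes, 1334, 444 and 45 passed without Arhgef11Sglt2 replicates 1, 2 and 3. Without control replicates 1, 2, 3, 4 and 5, 187, 284, 135, 24 and 76 of all genes passed.

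Hypoxia targets, a group to which Hilpda belongs, had 0 of 18 past the threshold in limma. Their median log2 difference was 0.31, with 14 of 18 positive. At an unadjusted p under 0.05 were 5 of the 18, against 21.1% of all genes. Without Arhgef11Sglt2 replicate 1, 2 of the 18 passed, where 1334 of all 15948 genes did. Vegfa, a growth factor of blood vessels, had a difference of -0.27 (limma adjusted p = 0.0634), and the glycolysis regulator Pfkfb3 and the histone demethylase gene Kdm3a had 0.56 and 0.47 (limma adjusted p = 0.156 and 0.165). Their median deviation was 0.07, -0.03 and 0.67 in Arhgef11Sglt2 replicates 1, 2 and 3. Replicate 3 had the highest deviation in this list, and it also held the highest value of 8 of the 10 genes, Hilpda among them. Ankrd37, a HIF target chosen after its values were seen, had 116.2, 50.82 and 861.3 normalized counts in Arhgef11Sglt2 replicates 1, 2 and 3, against 35.95 to 90.79 in the controls (limma adjusted p = 0.279). Corticosteroid targets, counted because DOCA is in both labels and Angptl4 is also induced by glucocorticoids, had 0 of 12 past the threshold in limma. Their median was 0.53, with 11 of 12 positive. At an unadjusted p under 0.05 were 6 of the 12, against 21.1% of all genes. The metallothionein gene Mt2 and the cell cycle inhibitor gene Cdkn1a had log2 differences of 1.13 and 0.63 (limma adjusted p = 0.0505 and 0.0546) and Fkbp5, a chaperone of steroid receptors, of 0.72 (limma adjusted p = 0.1). With a filter on low values or libraries scaled to equal totals 2 of these 12 passed, and 5 without Arhgef11Sglt2 replicate 1. Over all genes, 377, 327 and 1334 passed in these fits.

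**Figure D4:**
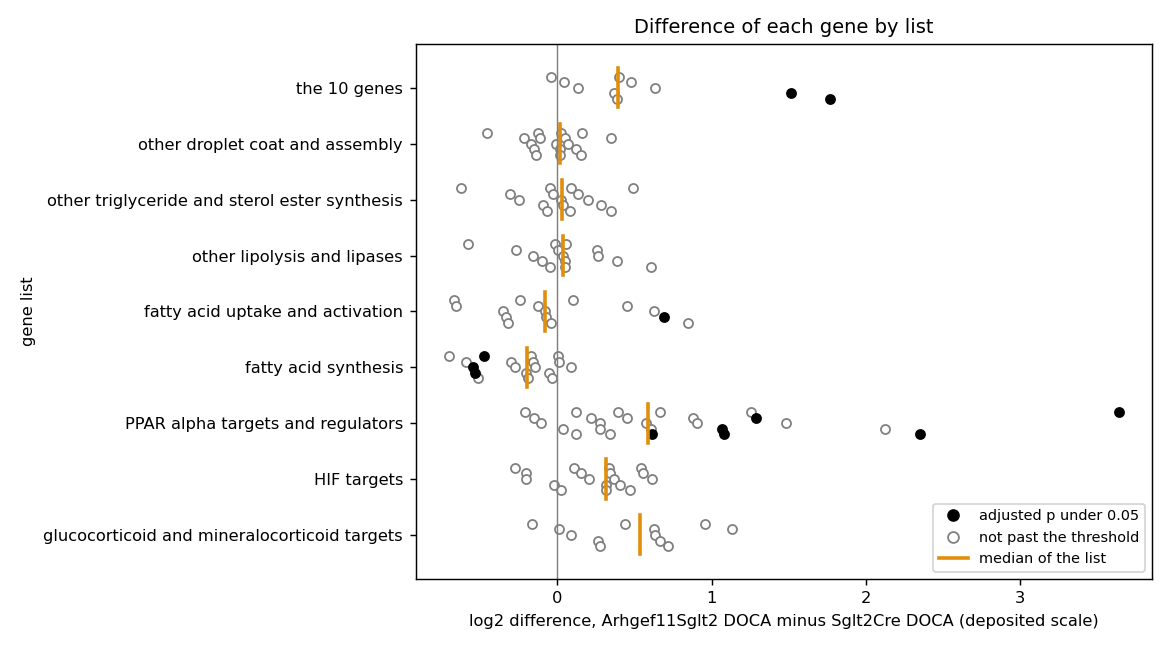
Log2 difference (x axis, Arhgef11Sglt2 DOCA minus Sglt2Cre DOCA on the deposited scale) of every measured gene of the 10 and of the 8 lists around them (y axis); filled points passed a limma adjusted p of 0.05 and the orange bar is the median of the list. The medians ran from -0.20 for fatty acid synthesis to 0.59 for PPAR alpha targets and regulators, with 0.40 for the 10 genes.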

How the data were processed

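For 15948 genes in 8 libraries of messenger RNA (stranded kit, per the labels' protocols), the authors deposited values on a log2 scale. That these are variance-stabilized was read from the values, which share a minimum of 8.1275, taken as a count of 0. Salmon 1.10.0, DESeq2 and GRCm39 are named per the submitters' processing notes, and the sources used here give neither annotation nor gene filter. The scale was inverted, q = (y - c)²/y with y the linear value and c = 279.7, to normalized counts, which summed to between 43040000 and 46680000 per library. They are not read counts, so read depth is unknown and no count model was fitted.

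limma 3.58.1 (R 4.3.3) was fitted to the deposited values of all genes with group as the only term and a mean-variance trend, and p was adjusted by Benjamini and Hochberg's method, with a threshold of 0.05. Symbols matched 15902 identifiers (99.71%); 12 listed genes were not matched. The 10 genes, the lists and the tests were chosen with earlier results of these data known. The genes named are the 10, those of each list past the threshold or else with the smallest p up to 3, defining markers, and the 5 genes most like a gene, printed for 3 of the 10. Abhd5 and Ankrd37 are named beyond this rule, with their values already seen. One gene that the rule names is not reported here. Same-numbered libraries did not deviate together (r of -0.18, -0.088 and -0.0068). These values gave no sign of a pairing by number, but so few cannot show that the libraries are unpaired. Alternatives changed the filter, scaling, pseudocount, variance model, library weights, block, library number range, threshold and each library in turn.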

Additional observations from a re-analysis of the deposited data

How the results depend on the processing

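Of the 10 genes 2 passed the threshold in limma on all 8 libraries, and 0 to 4 with 1 library left out. Array weights gave 4, adding Plin5 and Pnpla2, and a threshold of 0.1 gave 3. The low-value filter, both scalings, both pseudocounts, both variance settings and the library number term gave 2. A replicate block, with the replicate number as a term and 2 residual degrees of freedom, gave 0 of the 10 and 0 of all genes; the log2 differences of Plin2 and Angptl4 in it were 1.77 and 1.56. Without control replicates 1 and 2, a choice made after the data were seen, 0 of the 10 passed. Over all genes the count of 354 was 24 to 1334 with 1 library left out, 874 with array weights, 1038 at a threshold of 0.1 and 176 without control replicates 1 and 2. The count of 6 PPAR alpha targets was 18 with array weights, 11 at a threshold of 0.1 and 0 with the block. The direction turned for genes that had not passed: Plin3 was at -0.033 with the replicate block and between -0.049 and 0.12 with 1 library left out. Dgat1 was between -0.12 and 0.032 with 1 library left out and at 0.055 without control replicates 1 and 2. The causes were not tested. Hilpda, Plin4 and Plin5 have the lowest levels of the 10, where the deposited scale shrinks differences most.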
